A study of Mus musculus with 48 samples.

Results

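Blockade of MHC class II (MHC II) in the absence of IL-2 was represented by 8 of the 48 RNA-seq libraries of the study, namely the regulatory T cell (Treg) libraries of mice injected with PBS. They were chosen by their labels for cell type, treatment and antibody, and formed 4 libraries from mice given an isotype control antibody (isotype PBS) and 4 from mice given the MHC II blocking antibody (MHC II block PBS). All animals were C57BL/6 females of 8 to 12 weeks, an inbred and otherwise untreated mouse strain. Each mouse received 500 µg of antibody into the peritoneum on day -1 and again on day 0, PBS under the skin on day 0, and was analysed on day 4. Tregs were the CD25-positive fraction of spleen CD4 T cells obtained with a magnetic purification kit, 1 mouse per library, so a library holds every cell that the column retained. In the other 24 Treg libraries of the study the mice had received WT IL-2 or the attenuated IL-2 muteins H16R and 3x, with 4 libraries for each antibody, and conventional CD4 T cells (Tcons, the CD25-negative fraction) formed 2 libraries of each group. The 8 PBS libraries carry 8 different mouse labels, while 2 of the 4 isotype libraries with WT IL-2 carry the same one (A2-3) and may come from 1 mouse.

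MHC II molecules on dendritic cells, B cells and macrophages display peptides to the T cell receptor (TCR) of CD4 T cells. Many Tregs recognize self peptides, and the recurring TCR signal keeps genes of the immediate early type switched on, among them the NR4A and EGR transcription factors, together with feedback inhibitors such as phosphatases of the DUSP family. In a resting spleen these transcripts serve as a readout of ongoing antigen contact, and blocking MHC II asks how much of the resting Treg transcriptome depends on it.

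Levels are given as CPM, counts of a gene relative to the TMM-scaled total of its library. Differences are log2 fold changes of block over isotype ± SE, called by edgeR's quasi-likelihood test at a Benjamini-Hochberg adjusted p under 0.1. The test itself gives no SE, which was derived as the absolute log2 fold change over the square root of the F statistic. Total expected counts were 24.39 ± 7.28 M (SD, n = 4) in the isotype group and 31.95 ± 4.59 M (SD, n = 4) in the block group (two-sided exact permutation p = 0.171). Without isotype replicate 1 the means differed by 10.95 M (two-sided exact permutation p = 0.0286), so depth then differed between the groups. Foxp3, the lineage factor of Tregs, lay between 689 and 869 CPM in the 8 Treg libraries and between 55 and 79 CPM in the 4 PBS Tcon libraries. Il2ra, which encodes CD25, lay between 337 and 382 CPM in the Tregs and between 18.3 and 19.6 CPM in the Tcons, so the label of the cells held. Isotype replicate 1 stood apart by its content of other cell types. Its 18 B cell markers without the immunoglobulin genes summed to 1229 CPM, against 282 to 349 CPM in the other isotype libraries and 176 to 337 CPM with the block, and its 22 monocyte and macrophage markers summed to 402 CPM against 162 to 202 and 126 to 171 CPM. Isotype replicate 4 had the lowest depth (18.28 M), 9330 genes with an empty cell where the other 7 libraries had 7036 to 7284, and a ribosomal protein sum of 64655 CPM against 79260 to 88521 CPM. Counts by gene list are therefore given with all 8 libraries and without isotype replicate 1.

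MHC II block changed 1751 of 12392 tested genes (14.1%), of which 744 were higher (6.00% of all tested) and 1007 lower (8.13%). Without isotype replicate 1 the numbers were 1987 of 12355 (16.1%), 861 higher (6.97%) and 1126 lower (9.11%). The count of 1751 was 1165 without block replicate 1, 1106 without block replicate 2 and 780 when the 8 PBS libraries were fitted alone, and that of 1987 was 888 when isotype replicate 4 was also left out and 1136 with the 7 PBS libraries alone. Of the genes called with all 8 libraries, 1400 (80.0%) kept their call and direction without that library, and these made up 70.5% of the calls made without it. Within these 1400 genes, 603 were higher and 797 lower, and 91 of the rises and 35 of the falls were at least 1 on the log2 scale. The split between rises and falls depended on the scaling: with total counts in place of TMM, 1001 genes were higher and 779 lower, or 56.2% higher in place of 42.5%, and on log2(FPKM + 1) values 60.1% were higher. The median log2 fold change of all tested genes was -0.01, and 0.00 without isotype replicate 1.

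The NR4A family of nuclear receptors and Egr1, the transcripts that report most directly on TCR engagement, were lower with the block. Of the 6 NR4A and EGR factors tested, 4 fell and none rose, with and without isotype replicate 1, against 8.13% of all genes falling, and the median log2 fold change of the 6 was -0.60. Nr4a3 was at 122, 135, 175 and 223 CPM in isotype replicates 1 to 4 and at 78.6, 72.9, 75.7 and 69.7 CPM in block replicates 1 to 4. All isotype libraries lay above all block libraries, and the block libraries differed little among themselves. The change in Nr4a3 was -1.14 ± 0.15 (adjusted p = 1.52e-05), the largest fall of the family, and -1.26 ± 0.15 without isotype replicate 1. Nr4a1, which encodes NUR77 and is the most abundant member, was at 960, 913, 1199 and 1261 CPM in the isotype libraries and at 675, 671, 602 and 637 CPM with the block. Its groups were again separate, and it fell by 0.75 ± 0.11 on the log2 scale, from 1083 ± 172 to 646 ± 34.2 CPM (SD, n = 4; adjusted p = 4.78e-05). Nr4a2 went from 101 ± 18.9 to 65.2 ± 2.26 CPM (SD, n = 4), a fold change of -0.63 ± 0.17 on the log2 scale (adjusted p = 0.0159). Here isotype replicate 1, at 78.9 CPM, was the isotype library nearest to the block libraries, and the change without it was -0.74 ± 0.17.

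The EGR zinc finger factors were not uniform. Egr1 was at 568, 519, 509 and 540 CPM in the isotype libraries and at 311, 374, 393 and 356 CPM with the block, a change of -0.58 ± 0.10 (adjusted p = 0.000264) with no overlap of the groups. Egr2 and Egr3, which are linked to anergy and to the restraint of T cell activation, overlapped between the groups. Egr2 was at 39.9 ± 1.17 and 36.6 ± 3.15 CPM (SD, n = 4; -0.12 ± 0.09, adjusted p = 0.454), and Egr3 at 26.0 ± 4.67 and 23.6 ± 2.26 CPM (SD, n = 4; -0.15 ± 0.09, adjusted p = 0.341). The differences between Egr1 and these relatives were not tested.

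**Figure D1:**
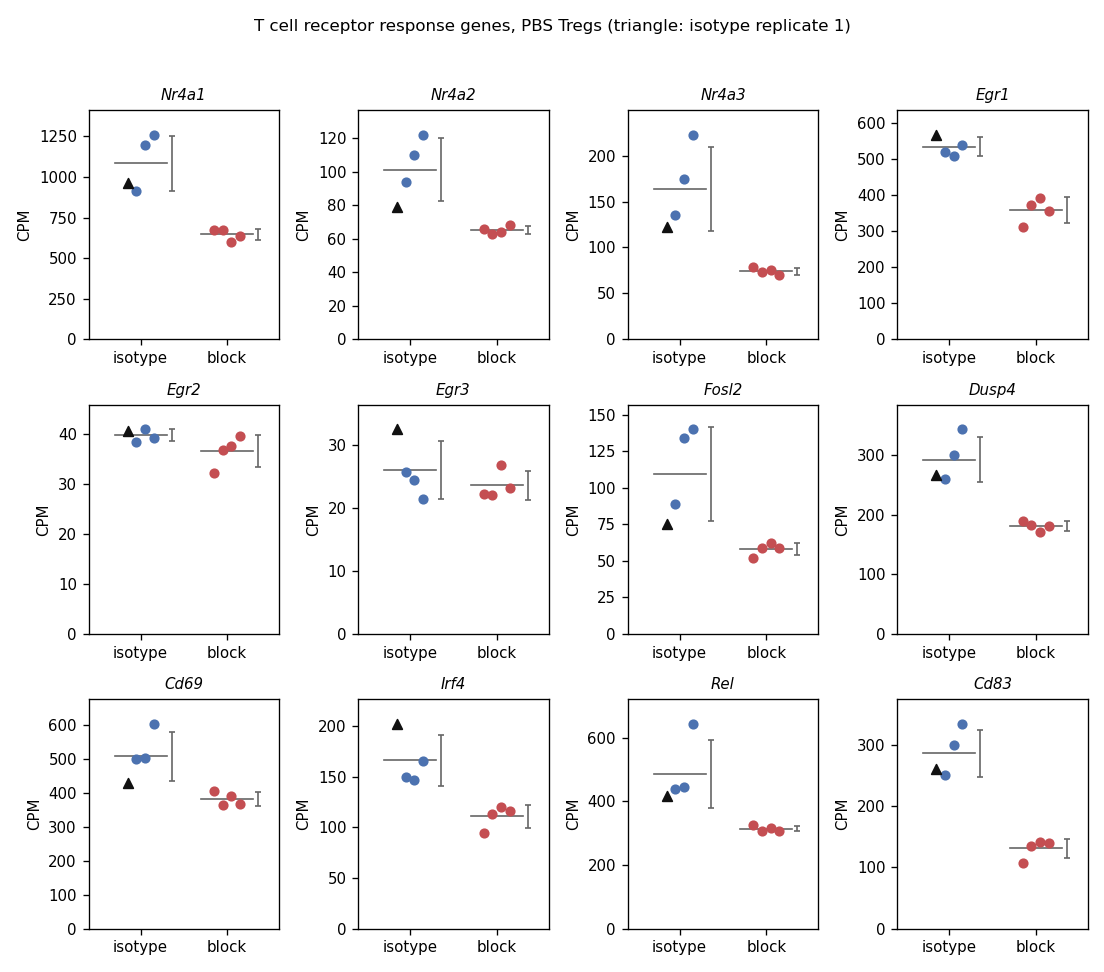
CPM of 12 TCR response genes in the 8 PBS Treg libraries, one panel a gene, with isotype and MHC II block libraries side by side (triangle, isotype replicate 1; horizontal line, mean; bar, SD). Nr4a1, Nr4a2, Nr4a3, Egr1 and Cd83 have no overlap of the groups, while Egr2 and Egr3 overlap.

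Some AP-1 and immediate early genes fell as well. Among 14 tested AP-1 and immediate early genes, 7 fell (Junb, Ier2, Atf3, Fosl2, Btg2, Fosb and Jund) and none rose, against 8.13% of all genes falling, with a median of -0.33, and 6 fell without isotype replicate 1. Junb, a subunit of the AP-1 dimer and one of the most abundant transcripts of the group, went from 3643 ± 250 to 2648 ± 111 CPM (SD, n = 4; -0.46 ± 0.07, adjusted p = 3.71e-05). Fosl2, another AP-1 subunit, was at 75.4, 88.7, 134 and 140 CPM in the isotype libraries and at 51.8, 59.1, 62.0 and 59.1 CPM with the block. The isotype libraries spread over a wide range, but the lowest was above the highest block library, and the change was -0.91 ± 0.17 (adjusted p = 0.000649). Atf3, a stress-induced member of the ATF family, was at 129, 128, 119 and 144 CPM and then at 53.8, 54.6, 81.0 and 56.1 CPM. Block replicate 3 was the highest of its group but still below every isotype library, and Atf3 changed by -1.08 ± 0.19 (adjusted p = 0.000503).

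Of 22 genes for feedback and activation downstream of the TCR, 13 fell and 1 rose (median -0.38), against 8.13% of all genes falling and 6.00% rising, and the same counts were found without isotype replicate 1. The falls included the MAP kinase phosphatases Dusp1, Dusp4, Dusp5, Dusp6 and Dusp10, the G protein regulators Rgs1, Rgs2 and Rgs16, the Ras pathway inhibitors Spry1 and Spry2, and Cd69, Irf4 and Tnfsf11. Dusp4 was at 267, 259, 300 and 343 CPM in the isotype libraries and at 190, 182, 171 and 181 CPM with the block (-0.69 ± 0.08, adjusted p = 9.64e-07). Cd69, an early activation antigen that also holds T cells in tissue, was closer between the groups. It was at 428, 499, 502 and 603 CPM and then at 405, 363, 390 and 366 CPM (-0.42 ± 0.08, adjusted p = 0.000748). Irf4, a factor required for effector Treg differentiation, was highest in isotype replicate 1 (202 CPM, others 147 to 165) and between 94.5 and 120 CPM with the block. It changed by -0.59 ± 0.11 (adjusted p = 0.00106) and by -0.47 ± 0.11 without that library. Dusp14, a further phosphatase and 1 of the 12 largest falls, went from 20.2 ± 3.06 to 10.1 ± 2.11 CPM (SD, n = 4; -1.00 ± 0.18, adjusted p = 0.000673).

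Cd5, the 1 member that rose, encodes a surface receptor whose level tracks the strength of TCR signals during development. It was at 480, 462, 488 and 436 CPM in the isotype libraries and at 568, 535, 497 and 519 CPM with the block (0.18 ± 0.05, adjusted p = 0.0129), a small difference without overlap. Most transcripts of the TCR complex and its proximal kinases were not called. Of 29 tested, 5 rose (Plcg1, Sla2, Cd3d, Cd247 and Prkcq) and 1 fell (Bcl10), against 6.00% of all genes rising and 8.13% falling, with a median of 0.05, and without isotype replicate 1 the counts were 4 and 2. The number of rises was 3 without isotype replicate 2, 3 without isotype replicate 4, and 2 without block replicate 1 or 2. Cd3d, a chain of the CD3 complex, was at 251 ± 34.5 and 297 ± 9.40 CPM (SD, n = 4; 0.24 ± 0.07, adjusted p = 0.0374), and this call was lost without isotype replicate 4 or block replicate 1. Cd5 and Cd3d were also the 2 rises among 6 tested T cell markers, of which 3 rose without isotype replicate 1 and 1 without isotype replicate 4 or block replicate 1. Bcl10, the adaptor that links the TCR to NF-kB, was at 84.8 ± 3.17 and 66.1 ± 2.17 CPM (SD, n = 4; -0.36 ± 0.04, adjusted p = 1.61e-06).

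Of 20 NF-kB subunits, inhibitors and activators tested, 8 fell and 0 rose (median -0.10), against 8.13% of all genes falling, and 6 fell without isotype replicate 1. Rel, the c-Rel subunit that binds the Foxp3 locus, was at 418, 438, 446 and 644 CPM in the isotype libraries and at 326, 308, 315 and 308 CPM with the block (-0.63 ± 0.15, adjusted p = 0.00942). Isotype replicate 4 stood above the rest, but all isotype libraries were above all block libraries. The inhibitors Nfkbia (-0.36 ± 0.05, adjusted p = 3.6e-05), Nfkbid (-0.43 ± 0.08, adjusted p = 0.000846) and Tnfaip3 (-0.48 ± 0.10, adjusted p = 0.00168), which are themselves induced by NF-kB, fell as well. Cd83, a surface molecule induced on activated lymphocytes, was among the largest falls, at 262, 251, 300 and 335 CPM and then at 108, 135, 142 and 140 CPM (-1.13 ± 0.16, adjusted p = 3.71e-05). In the 300-base promoter windows of RefSeq for GRCm38.p6 (250 bases before to 50 after the start), the cAMP response element TGACGTCA, searched on both strands, was found in 1 of 16 NR4A, EGR, AP-1 and immediate early genes with a window (Btg2) and in 2.03% of all genes. The letters are a description of these windows only.

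Most Treg identity genes were not called, while some effector Treg markers fell. Of the 10 Treg markers 0 were called with all 8 libraries by edgeR, 2 had an unadjusted p under 0.05 and DESeq2 called 0, and Ctla4 alone was called, lower, without isotype replicate 1 (-0.31 ± 0.10, adjusted p = 0.0377). Foxp3 was at 740 ± 36.2 and 810 ± 48.5 CPM (SD, n = 4; 0.13 ± 0.06, adjusted p = 0.151), and Ikzf2, which encodes Helios, at 631 ± 89.7 and 656 ± 26.5 CPM (SD, n = 4; 0.06 ± 0.10, adjusted p = 0.788). Over the 22 genes of Treg identity and the IL-2 receptor, 1 rose (Ikzf3) and 1 fell (Cish), against 14.1% of all genes called, and without isotype replicate 1 only Cish was called. The call of Ikzf3 was lost in 13 of 23 alternatives, among them leaving out isotype replicate 1, 2 or 3 or block replicate 1, 2 or 3. Cish, a SOCS family target of STAT5 downstream of IL-2, was at 228, 228, 239 and 238 CPM in the isotype libraries and at 188, 173, 193 and 176 CPM with the block (-0.35 ± 0.06, adjusted p = 0.000282). Of 30 effector Treg markers 8 fell (Cd44, Ccr8, Areg, Nfil3, Id2, Ebi3, Penk and Pparg) and 1 rose (Lag3), with a median of -0.13, against 8.13% of all genes falling, and without isotype replicate 1 the counts were 10 and 2. Cd44, an adhesion receptor of antigen-experienced cells, was at 180, 198, 209 and 234 CPM and then at 158, 160, 165 and 157 CPM (-0.36 ± 0.06, adjusted p = 0.000445). Areg, the growth factor amphiregulin made by tissue-repair Tregs, went from 29.9 ± 2.62 to 20.5 ± 1.32 CPM (SD, n = 4; -0.54 ± 0.12, adjusted p = 0.00486). Il10 and Lrrc32, genes of the suppressive machinery, were at 36.1 ± 4.80 and 33.3 ± 3.92 CPM and at 303 ± 15.2 and 329 ± 15.8 CPM (SD, n = 4), with adjusted p of 0.707 and 0.239.

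Lag3, an inhibitory receptor that itself binds MHC II, rose. It was at 83.9, 49.5, 80.8 and 42.3 CPM in the isotype libraries and at 97.8, 113, 88.1 and 111 CPM with the block (0.66 ± 0.20, adjusted p = 0.0352), and the call was lost without isotype replicate 2 or 4. The groups did not overlap, but the isotype libraries themselves spread from 42.3 to 83.9 CPM. Among 18 costimulatory and inhibitory receptors, Slamf6 and Cd2 rose as well and Slamf1 fell (3 higher, 1 lower, against 14.1% of all genes called). The call of Slamf1 was lost in 15 of 23 alternatives, among them leaving out isotype replicate 3 or 4 or any block replicate, and that of Cd2 in 10, among them leaving out isotype replicate 2 or 4 or block replicate 1 or 2. Without isotype replicate 1 there were 4 rises and 5 falls, and the rises went to 1 without isotype replicate 2 or 4. In the TNF receptor superfamily 2 of 15 rose and 3 fell, against 6.00% and 8.13% of all genes, and there were 2 rises and 2 falls without isotype replicate 1. Cd27, a costimulatory receptor of naive and memory T cells, was at 204, 200, 204 and 180 CPM and then at 262, 266, 242 and 253 CPM (0.38 ± 0.06, adjusted p = 0.000173). Tnfrsf8, which encodes CD30, was at 30.0, 32.2, 28.0 and 35.9 CPM and then at 17.0, 17.9, 15.6 and 21.3 CPM (-0.81 ± 0.11, adjusted p = 2.95e-05). Tnfrsf4 (OX40) fell with all libraries (-0.28 ± 0.09, adjusted p = 0.055) but not without isotype replicate 1 (-0.23 ± 0.10, adjusted p = 0.136). Its call was also lost without isotype replicate 3 or block replicate 2 or 3. Tnfrsf9 and Tnfrsf18 were at -0.12 ± 0.10 and -0.06 ± 0.07 with adjusted p of 0.476 and 0.646.

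Among chemokine receptors 5 of 16 fell and 0 rose (Ccr7, Ccr8, Cxcr5, Cxcr4 and Ccr1; median -0.22), against 8.13% of all genes falling, with 5 also without isotype replicate 1 and 3 without block replicate 1 or 2. Ccr7, which guides T cells into the T cell zone of lymphoid organs, was at 498, 391, 499 and 495 CPM in the isotype libraries and at 304, 310, 269 and 322 CPM with the block (-0.64 ± 0.13, adjusted p = 0.00143). Ccr8, a receptor of effector and tissue Tregs, was at 51.2, 44.7, 58.1 and 52.6 CPM and then at 32.5, 32.9, 37.9 and 34.4 CPM (-0.58 ± 0.12, adjusted p = 0.00152). Both were thus without overlap, although the first marks naive-like and the second effector cells. Of the 23 genes of naive and recirculating T cells, 1 rose (Ly6c1, a call lost on leaving out any 1 of the 8 libraries) and 2 fell (Ccr7 and Klf6), against 6.00% of all genes rising and 8.13% falling, and without isotype replicate 1 again 1 rose (Dapl1) and 2 fell. The rises were 3 without isotype replicate 4 or block replicate 3 and 0 without block replicate 1, 2 or 4. Under total count scaling 6 genes of this list rose in place of 1, and the median of the list was 0.03. Of 20 integrins and adhesion genes, Selplg rose and Cd44 and Icam1 fell, near the same shares of all genes, with 2 rises and 3 falls without isotype replicate 1 and 1 fall without isotype replicate 4 or block replicate 1 or 2. Of 16 helper T cell genes Cxcr5 and Il22 fell, against 8.13% of all genes, with 6 falls without isotype replicate 1 and 1 without isotype replicate 3 or 4 or block replicate 1 or 3.

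A subset of interferon-stimulated genes rose sharply with the block. Of 66 type I interferon-stimulated genes tested, 14 rose and none fell, against 6.00% of all genes rising, and 17 rose without isotype replicate 1, against 6.97%. The median of the list was 0.13, and 60 of the 66 had a log2 fold change above 0. The sequences just upstream of the leading genes are printed because they hold the interferon-stimulated response element, the binding site of the factor complex that type I interferon activates. The element was searched as GAAA, any 2 bases, then GAAA, on both strands, in the RefSeq windows of GRCm38.p6 that run from 250 bases before to 50 after a start, and matches that overlap were merged. Capitals mark the matches.

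Ifit1, chr19:34640760-34640838, plus strand: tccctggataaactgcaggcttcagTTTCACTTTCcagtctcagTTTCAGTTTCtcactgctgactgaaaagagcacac
Ifit3, chr19:34583348-34583441, plus strand: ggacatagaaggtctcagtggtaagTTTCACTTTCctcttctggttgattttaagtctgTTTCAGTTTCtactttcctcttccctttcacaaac
Isg15, chr4:156200850-156200921, minus strand: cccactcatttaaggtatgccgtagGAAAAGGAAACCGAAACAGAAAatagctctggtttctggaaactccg

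The 94 bases shown for Ifit3 recur letter for letter upstream of its neighbour Ifit3b, at chr19:34607744-34607837. Whether the transcripts are also alike enough for the authors' counting to split reads between the pair was not tested, so their levels are given as uncertain. Of the interferon-stimulated genes that rose, 11 had a window and 7 of these held the element (63.6%), against 16 of 41 that were not called (39.0%) and 3.99% of all 27025 genes with a window. No window was at hand for Rtp4, Usp18 and Oas2.

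Ifit1, Ifit3 and Ifit3b encode proteins that bind viral RNA or the complexes formed on it. Ifit1 was at 34.8, 52.4, 55.1 and 49.7 CPM in the isotype libraries and at 175, 147, 196 and 163 CPM with the block, a 3.57-fold rise (1.83 ± 0.15, adjusted p = 7.57e-09). The lowest block library was thus far above the highest isotype library. Ifit3 was at 18.3, 15.1, 18.1 and 15.1 CPM and then at 67.6, 49.5, 66.8 and 52.4 CPM, a 3.53-fold rise (1.82 ± 0.15, adjusted p = 7.57e-09). Ifit3b went from 2.75 ± 0.541 to 12.4 ± 2.91 CPM (SD, n = 4; 2.16 ± 0.18, adjusted p = 7.57e-09). Isg15, a ubiquitin-like modifier, followed at 33.7, 35.2, 39.0 and 23.1 CPM and then at 74.1, 67.7, 79.1 and 69.6 CPM (1.14 ± 0.10, adjusted p = 1.47e-08). Rtp4, a chaperone of surface receptors that is induced by interferon, went from 25.1 ± 3.14 to 48.7 ± 6.14 CPM (SD, n = 4; 0.96 ± 0.10, adjusted p = 6.23e-07). None of these 5 genes had overlapping groups, and none moved by more than 0.13 on the log2 scale when isotype replicate 1 was left out.

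Irf7, the amplifier of interferon production, did not pass the test, at 57.1 ± 6.95 and 63.0 ± 11.2 CPM (SD, n = 4; 0.14 ± 0.09, adjusted p = 0.374). The other rises of the list (Ifit2, Ifit1bl1, Slfn1, Samhd1, Slfn5, Ifi213, Daxx, Usp18 and Oas2) were smaller than those above, as the plot of all 66 genes shows. The number of rises was 9 without block replicate 1 and 9 without block replicate 3. Of 32 genes of the interferon gamma response and MHC class I, 4 rose (Irgm2, Irgm1, Tgtp1 and Tgtp2) and none fell (median 0.04), against 6.00% of all genes rising, and without isotype replicate 1 the calls were Irgm2, Irgm1 and Tap2. The rises were 2 without isotype replicate 2 or block replicate 1, 2 or 4, and the calls of Tgtp1 and Tgtp2 were each lost on leaving out 7 of the 8 libraries in turn. Irgm2, an immunity-related GTPase, was at 31.9 ± 3.09 and 45.6 ± 1.35 CPM (SD, n = 4; 0.51 ± 0.10, adjusted p = 0.00117). Tgtp1 and Tgtp2 are close copies whose reads may be shared.

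**Figure D2:**
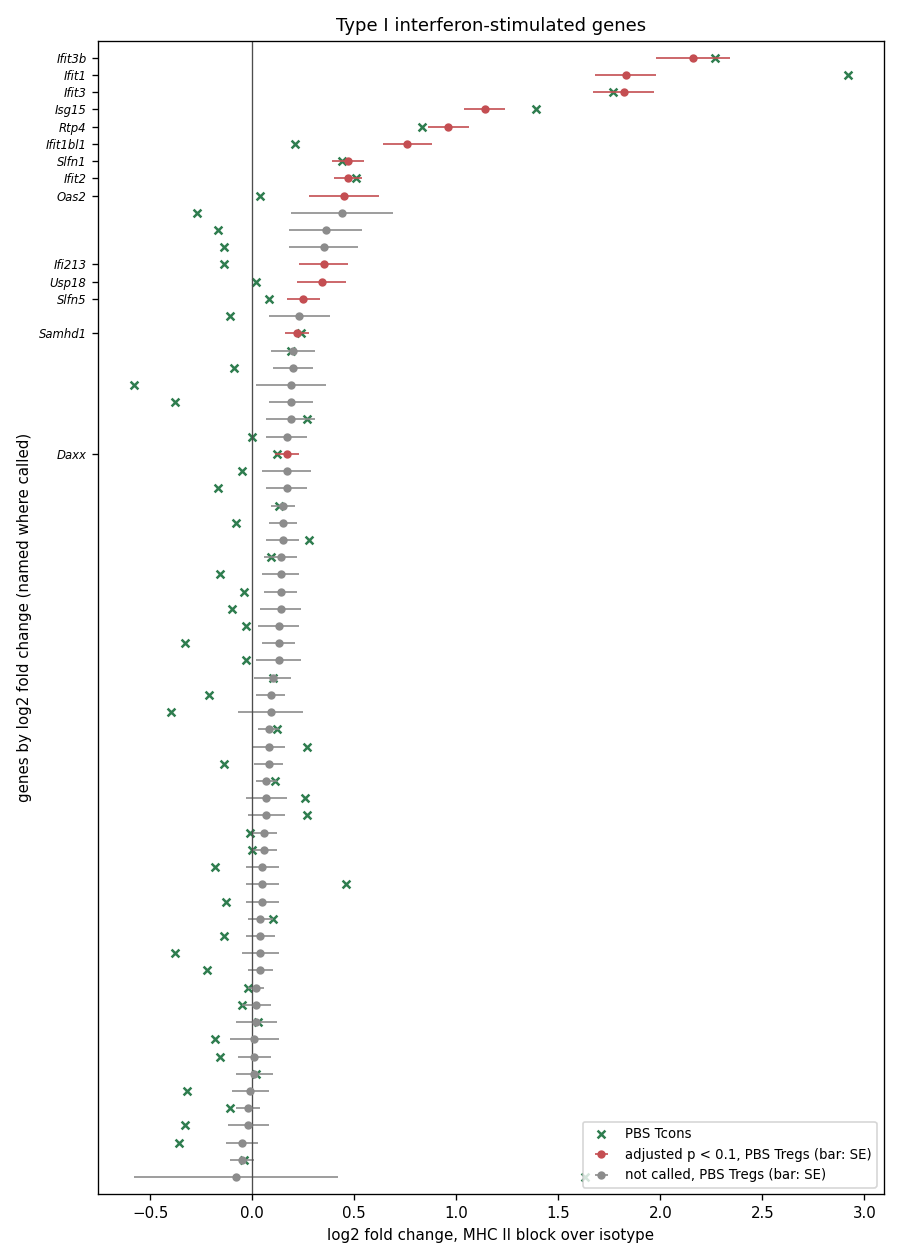
Log2 fold change of MHC II block over isotype for the 66 type I interferon-stimulated genes tested in PBS Tregs (circles with SE, red where the adjusted p was under 0.1) and the same genes in PBS Tcons (crosses). The rise is concentrated in Ifit3b, Ifit1, Ifit3, Isg15 and Rtp4, and most of the genes that were not called, which carry no name, lie near 0.

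Outside the interferon list, Tnf and Dntt were among the clearest rises. Tnf, the inflammatory cytokine that T cells release on stimulation, was at 60.3, 74.1, 71.0 and 65.2 CPM in the isotype libraries and at 146, 116, 131 and 137 CPM with the block (0.97 ± 0.10, adjusted p = 1.94e-07). It thus rose in the same libraries in which some NF-kB and TCR response genes fell. Dntt, the terminal transferase that adds bases to recombining receptor genes in developing lymphocytes, was at 4.94, 4.03, 5.13 and 5.12 CPM and then at 13.5, 18.0, 7.57 and 12.2 CPM (1.41 ± 0.26, adjusted p = 0.000848). Cd163l1, a scavenger receptor of the cysteine-rich family, was at 6.86, 17.3, 14.3 and 11.8 CPM and then at 32.4, 38.6, 17.7 and 21.0 CPM (1.14 ± 0.28, adjusted p = 0.0102). Block replicate 3 was only just above isotype replicate 2.

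With all 8 libraries, the largest rise among genes above a mean of 5 CPM and called both with and without isotype replicate 1 was in Car1, a carbonic anhydrase that is abundant in red blood cells. Car1 was at 2.34, 2.28, 1.54 and 7.08 CPM in the isotype libraries and at 11.2, 17.5, 44.8 and 30.3 CPM with the block, an 8.14-fold rise (3.03 ± 0.47, adjusted p = 0.000116). Without isotype replicate 4, the highest of its group, the log2 fold change was 3.67 (adjusted p = 3.46e-05). Without isotype replicate 1 it was 2.88 ± 0.52, just below that of Aqp1 (2.90 ± 0.68). The groups did not overlap, and the block libraries spread widely, with block replicate 3 highest. Aqp1, the water channel of red cells, had the same order among block libraries, at 4.40, 8.42, 22.8 and 10.8 CPM against 0.583 to 3.43 CPM in the isotype libraries (2.94 ± 0.60, adjusted p = 0.00197), and 3.59 on the log2 scale without isotype replicate 4 (adjusted p = 0.00124). Ermap, an erythroid membrane protein, was at 3.73, 6.59, 17.6 and 8.44 CPM against 1.17 to 3.85 CPM (2.25 ± 0.45, adjusted p = 0.00187), with block replicate 1 just below isotype replicate 4. Car2 and Myh10 rose too (0.89 ± 0.28 and 1.05 ± 0.29, adjusted p = 0.0432 and 0.0229), but both calls were lost without block replicate 3.

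Some markers of the erythroid lineage, Ermap itself among them, moved with these genes, and their part in the result was not tested. The 14 markers of this lineage summed to 24.4, 21.9, 20.7 and 25.4 CPM in the isotype libraries and to 28.8, 31.8, 65.5 and 37.3 CPM with the block, highest in block replicate 3. Gata1, which was not called (0.24 ± 0.10, adjusted p = 0.129), made up most of the isotype sums. It was at 16.3 to 17.1 CPM in the isotype libraries and at 16.9 to 21.7 CPM with the block. Of the 12 tested, 6 rose (Klf1, Ermap, Epor, Rhd, Tspo2 and Hemgn) and none fell, against 6.00% of all genes rising, with a median of 1.83, and the same 6 rose without isotype replicate 1. Klf1, the master factor of erythroid genes, was at 0.371, 0.291, 0.242 and 0.475 CPM and then at 1.27, 2.14, 6.63 and 2.42 CPM (3.18 ± 0.53, adjusted p = 0.000228). Transcripts that define mature red cells were near 0 in both groups. Hba-a1 was between 0.323 and 1.51 CPM in the isotype libraries and between 0.246 and 2.83 CPM with the block, Hbb-bs between 0.162 and 1.21 and between 0.0704 and 1.64 CPM, and Alas2 at or below 0.143 CPM in all 8 libraries. Hba-a2 had an empty cell in every one of these libraries. Nos1, a nitric oxide synthase on the same list as the carbonic anhydrases (3 of 8 rose, also without isotype replicate 1), was higher in a different order of libraries. Nos1 was at 1.60, 0.583, 0.889 and 0.634 CPM and then at 2.50, 2.68, 1.84 and 2.73 CPM (1.28 ± 0.29, adjusted p = 0.00484). Isotype replicate 1 was the highest and block replicate 3 the lowest of its group. Over 23 alternatives the log2 fold change of Nos1 ran from 0.18 to 1.88. The call was lost with the replicate block and on log2(FPKM + 1) values.

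**Figure D3:**
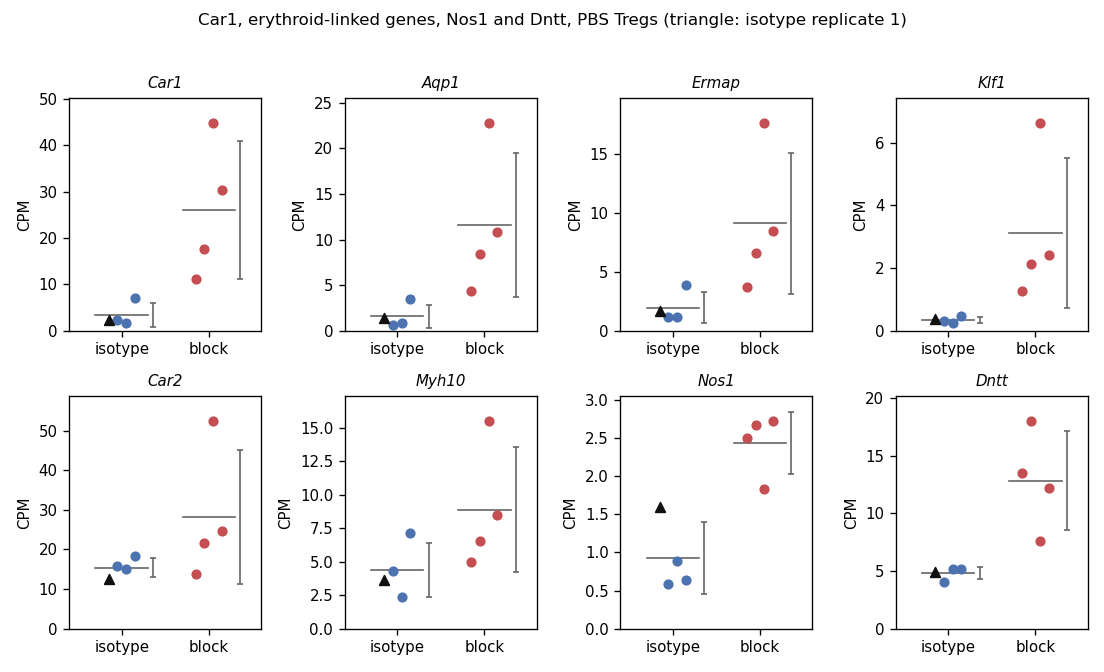
CPM of Car1, 5 further genes with the highest value in block replicate 3, Nos1 and Dntt in the 8 PBS Treg libraries, one panel a gene (triangle, isotype replicate 1; horizontal line, mean; bar, SD). The library at 44.8 CPM of Car1 is also the highest for Aqp1, Ermap, Klf1, Car2 and Myh10, and not for Nos1.

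The calls of MHC II and B cell genes depended on isotype replicate 1. Of the 11 MHC II genes, 9 fell with all 8 libraries (median -1.27, against 8.13% of all genes falling) and 0 without that library (median -0.55, edgeR at an adjusted p under 0.1). Without it 2 of the 11 had an unadjusted p under 0.05. In a fit added after the data were seen, which left out block replicate 3 as well, 2 were called lower. With isotype replicate 1 kept, the count of falls was 5 without block replicate 1 and 4 without block replicate 2. H2-Aa, the alpha chain of I-A, was at 410 CPM in isotype replicate 1, at 157, 116 and 129 CPM in the other isotype libraries, and at 51.7, 63.7, 112 and 78.3 CPM with the block. Its change was -1.41 ± 0.37 (adjusted p = 0.0148) with all libraries and -0.81 ± 0.33 (adjusted p = 0.119) without isotype replicate 1, and the groups were separate both ways. Cd74, the invariant chain, was at 1179, 473, 401 and 406 CPM and then at 193, 276, 416 and 328 CPM (-1.02 ± 0.33, adjusted p = 0.0476), and at -0.49 ± 0.29 (adjusted p = 0.307) without isotype replicate 1. In such bulk libraries, fewer cells of a type and less RNA per cell cannot be told apart.

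Of the B cell markers 10 of 17 fell with all libraries (median -1.44), against 8.13% of all genes (9.11% without isotype replicate 1), 0 without isotype replicate 1 (median -0.49), 2 without block replicate 1 or 2 and 3 without block replicate 4. Without isotype replicate 1, 0 of these markers had an unadjusted p under 0.05. Pax5, the B cell identity factor, was at 104, 14.7, 9.30 and 19.9 CPM in the isotype libraries and at 4.01, 3.12, 14.9 and 7.26 CPM with the block (-2.34 ± 0.85, adjusted p = 0.0831), with -0.98 (adjusted p = 0.494) without isotype replicate 1 and -2.96 (adjusted p = 0.0651) without block replicate 3. Scd1 and Chst3, on no B cell list, had the same pattern, at 82.8 and 42.3 CPM in isotype replicate 1 and at or below 11.8 and 7.34 CPM in the other isotype libraries. Against the same shares of all genes, monocyte and macrophage markers went from 5 falls of 18 to 1, which was Fcer1g, a signaling chain shared with NK cells, and the falls were 0, 1, 3 and 1 without block replicates 1, 2, 3 and 4. Of the 10 dendritic cell, 5 plasma cell and 2 platelet markers tested, 0 were called by edgeR or DESeq2 (1, 0 and 1 at an unadjusted p under 0.05), against 14.1% of all genes called by edgeR, and of 9 neutrophil markers 1 fell (Csf3r), against 8.13% of all genes, with 0 falls without isotype replicate 1 or 4 or block replicate 1, 2 or 4 and 3 without block replicate 3. The neutrophil markers were uneven within both groups and summed to 53.4, 7.77, 4.93 and 19.9 CPM in the isotype and to 4.72, 3.94, 13.7 and 1.40 CPM in the block libraries.

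Of 11 NK and CD8 T cell markers 4 fell with and without isotype replicate 1 (Klrd1, Ncr1, Klrk1 and Klre1) and 7 were not called, against 8.13% and 9.11% of all genes falling. Klrd1, the CD94 receptor chain, was at 4.40, 5.00, 4.16 and 4.96 CPM in the isotype libraries and at 2.82, 2.59, 2.80 and 2.79 CPM with the block (-0.75 ± 0.17, adjusted p = 0.00552). Prf1 and Nkg7, cytotoxic genes, were at -0.03 ± 0.19 and -0.17 ± 0.14 with adjusted p of 0.94 and 0.503. The summed level of the 11 markers was 106 to 129 CPM in the isotype and 93.4 to 101 CPM in the block libraries, and the falls were 2 without block replicate 1 or 2.

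**Figure D4:**
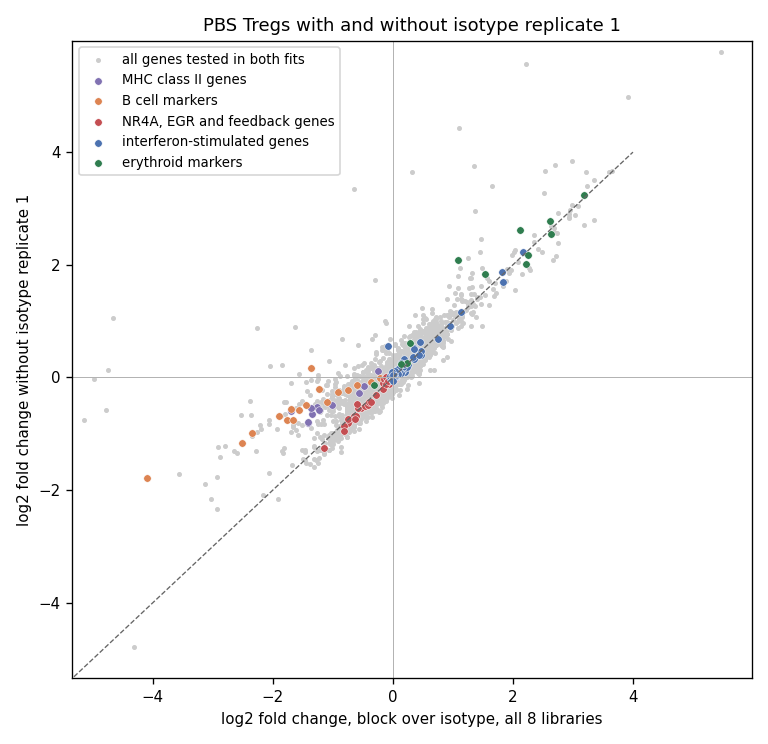
Log2 fold change of MHC II block over isotype with all 8 PBS Treg libraries (x axis) and without isotype replicate 1 (y axis), one point a gene, with 5 gene groups in color and a dashed line of equal values. MHC II and B cell genes lie above the line, closer to 0 without that library, whereas the NR4A, EGR and feedback genes, the interferon-stimulated genes and most erythroid markers lie on or near it.

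Some chaperone, stress and growth genes fell, where 8.13% of all genes did. Of 27 heat shock and ER chaperones 11 fell and none rose (median -0.13), and 9 fell without isotype replicate 1. Hsp90aa1, the inducible HSP90, was at 658, 686, 790 and 865 CPM in the isotype libraries and at 558, 564, 639 and 551 CPM with the block (-0.38 ± 0.07, adjusted p = 0.000673), and its cochaperone Dnaja1 changed by -0.49 ± 0.08 (adjusted p = 0.000246). Of 19 ATF4 targets and amino acid genes 6 fell (median -0.11), 5 without isotype replicate 1 and 3 without block replicate 2. Atf4 itself, the transcription factor of the integrated stress response, was at 534, 507, 533 and 525 CPM and then at 406, 416, 414 and 411 CPM (-0.35 ± 0.04, adjusted p = 3.96e-06). Of 30 genes of Myc and ribosome biogenesis 7 fell (median -0.07), also without isotype replicate 1, and 4 without block replicate 3. Odc1, the rate-limiting enzyme of polyamine synthesis, accounted for the largest of these falls among the members named, from 769 ± 55.8 to 514 ± 38.7 CPM (SD, n = 4; -0.58 ± 0.08, adjusted p = 1.92e-05), whereas Myc was at 97.2 ± 15.6 and 90.0 ± 2.63 CPM (SD, n = 4; adjusted p = 0.459).

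Metabolic and survival genes are given next, against 8.13% of all genes falling and 6.00% rising. Hk2, the inducible hexokinase, was at 23.6, 19.9, 19.5 and 19.6 CPM in the isotype libraries and at 14.1, 13.1, 14.5 and 13.8 CPM with the block (-0.58 ± 0.09, adjusted p = 0.000176), and was 1 of 3 falls among 22 glycolysis genes, of which 4 fell without isotype replicate 1. Of 30 sterol and fatty acid genes 6 fell and 2 rose, with 9 falls and 2 rises without isotype replicate 1. The falls were 9 without block replicate 1 and 2 without block replicate 3. The rises were 1 without isotype replicate 2 or block replicate 1, 2 or 4, and 3 without block replicate 3. Insig1, the sterol sensor, fell by 0.31 ± 0.07 on the log2 scale (adjusted p = 0.00322). In the BCL2 family 3 of 15 fell, the survival gene Bcl2l1 (-0.37 ± 0.06, adjusted p = 0.000502), the death gene Pmaip1 (-0.43 ± 0.08, adjusted p = 0.000637) and Mcl1 (-0.11 ± 0.04, adjusted p = 0.0564, a call lost in 12 of 23 alternatives, among them leaving out isotype replicate 3 or 4 or block replicate 1 or 2), and 3 also fell without isotype replicate 1. Against these falls, 5 of 8 GIMAP genes, GTPases of lymphocyte survival encoded in 1 cluster, rose (median 0.20), 5 without isotype replicate 1, 3 without isotype replicate 4 and 3 without block replicate 1. Gimap3 was at 912, 1010, 995 and 945 CPM and then at 1181, 1197, 1149 and 1187 CPM (0.29 ± 0.04, adjusted p = 8.74e-05).

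Most genes of proliferation and of the large housekeeping complexes were not called, where 14.1% of all genes were (6.00% rising and 8.13% falling). Of 30 mitotic genes 0 were called by edgeR or DESeq2 (median 0.10; 1 at an unadjusted p under 0.05), and the count was 1, Cenpa, without isotype replicate 1. Of 30 replication genes Pcna fell (-0.17 ± 0.06, adjusted p = 0.0585), with Ccne1 higher and Pcna lower without isotype replicate 1, and the call of Pcna was lost without isotype replicate 3 or block replicate 1 or 2. Of 14 cyclins, CDKs and inhibitors Cdkn1a fell (-0.44 ± 0.14, adjusted p = 0.0452), also without isotype replicate 1, but not without isotype replicate 2 or 3 or block replicate 4. Mki67 was at 144 ± 13.7 and 175 ± 6.77 CPM (SD, n = 4; 0.28 ± 0.14, adjusted p = 0.209). Of 37 proteasome genes 0 were called by edgeR or DESeq2 (1 at an unadjusted p under 0.05), and edgeR again called 0 without isotype replicate 1 (3 at an unadjusted p under 0.05). Of 75 oxidative phosphorylation genes 1 fell (Uqcrfs1), and without isotype replicate 1 it fell and 2 rose (Ndufb9 and Ndufs5). Of 77 ribosomal protein genes, for which copies elsewhere in the genome make the counts uncertain, 3 fell (Rpl27, Rpl5 and Rps12). The counts were 3 falls and 3 rises (Rpl34, Rps16 and Rpl32) without isotype replicate 1, and 1 fell without isotype replicate 3, isotype replicate 4 or block replicate 3.

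Among the 12 largest falls, several genes belong to no list above. Rasgef1b, a Ras exchange factor, was at 36.1, 16.8, 19.7 and 27.5 CPM in the isotype libraries and at 9.26, 9.33, 11.3 and 10.7 CPM with the block. With all 8 libraries this was the largest fall among the genes called with and without isotype replicate 1 above a mean of 5 CPM (-1.31 ± 0.23, adjusted p = 0.000469). Without isotype replicate 1 the change was -1.07 ± 0.23, and Bmp2 (-1.34), Nr4a3 (-1.26) and other genes fell further. Bmp2, a growth factor of the TGF-beta superfamily, was at 8.29, 17.4, 13.4 and 19.1 CPM and then at 3.41, 9.30, 8.88 and 4.50 CPM (-1.14 ± 0.34, adjusted p = 0.0355). Its groups overlapped, and the call was lost without isotype replicate 4, block replicate 1 or block replicate 4. Rgcc, a regulator of the cell cycle, was at 80.9, 90.1, 99.0 and 110 CPM and then at 45.2, 50.4, 52.7 and 50.8 CPM (-0.93 ± 0.11, adjusted p = 3.96e-06). Cxcl2, a neutrophil-attracting chemokine, was at 17.1, 17.0, 18.7 and 19.0 CPM and then at 8.16, 8.32, 11.9 and 7.41 CPM (-1.00 ± 0.16, adjusted p = 0.000187). Anxa1, a phospholipid-binding protein with anti-inflammatory activity, was at 14.4, 17.8, 13.4 and 15.2 CPM and then at 7.78, 6.90, 9.31 and 7.38 CPM (-0.95 ± 0.18, adjusted p = 0.00102). The remaining falls were Gcnt2, a glycosyltransferase (-1.00 ± 0.23, adjusted p = 0.00698), the axonemal dynein Dnah7a (-1.02 ± 0.15, adjusted p = 4.78e-05) and the deubiquitinase Usp2 (-0.93 ± 0.19, adjusted p = 0.0026), all 3 without overlap.

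Whether the blockade effect was the same in mice given IL-2 was asked next. Each test compared the blockade effect with an IL-2 molecule to that with PBS in 1 model of 32 libraries, and it differed for 2437 genes (19.7%) for WT IL-2, 2363 (19.1%) for H16R and 4835 (39.0%) for 3x. These counts were 2616 (21.2%), 1740 (14.1%) and 4261 (34.5%) without isotype replicate 1, and that for H16R was 3593 without isotype replicate 4. The 3 tests share the 8 PBS libraries. Over 30 genes chosen after their PBS values were seen, 34 of 90 differences were called, 10 for WT IL-2, 11 for H16R and 13 for 3x, and without isotype replicate 1 10, 9 and 11, of which 9, 8 and 11 were among the first. Of the NR4A differences only that of Nr4a2 with 3x was called (-0.53, adjusted p = 0.0841), and it was not without isotype replicate 1 (-0.43, adjusted p = 0.181). For Nr4a3 the effect with WT IL-2, H16R and 3x differed from that with PBS by 0.01, 0.37 and 0.06 on the log2 scale (adjusted p = 0.989, 0.255 and 0.864). Egr1 was different. Its fall of the PBS mice was not seen with IL-2, where isotype and block libraries averaged 384 ± 32.7 and 453 ± 87.1 CPM in the WT IL-2 groups, 318 ± 11.8 and 318 ± 21.5 CPM in the H16R groups and 266 ± 27.9 and 272 ± 19.3 CPM in the 3x groups (SD, n = 4). The differences from PBS were 0.81, 0.58 and 0.61 (adjusted p = 0.000232, 0.00749 and 0.00152). Within the WT IL-2 groups Egr1 was itself called higher with the block (0.24, adjusted p = 0.0698). With H16R and 3x it was not called (adjusted p = 0.99 and 0.802). With the 2 isotype WT IL-2 libraries of label A2-3 summed as 1, the difference of Egr1 for WT IL-2 was 0.84 (adjusted p = 0.000349).

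Anxa1 and Gcnt2 differed from PBS in all 3 treatments. Anxa1 was higher with the block in each IL-2 group, at 9.96 ± 2.21 and 19.5 ± 7.28 CPM for WT IL-2, 8.20 ± 1.02 and 15.6 ± 1.20 CPM for H16R and 10.1 ± 1.13 and 20.2 ± 2.23 CPM for 3x (SD, n = 4), where it had been lower with PBS. The differences were 1.91, 1.88 and 1.94 on the log2 scale (adjusted p = 1.76e-05, 2.7e-05 and 3.35e-06). With the A2-3 libraries summed, that of Anxa1 for WT IL-2 was 1.97 (adjusted p = 2.42e-05). For Gcnt2 they were 1.49, 1.36 and 1.07 (adjusted p = 0.00234, 0.0112 and 0.0175). Among the rises, Ifit1 rose less with H16R and 3x, by -0.87 and -1.26 (adjusted p = 0.0101 and 9.31e-05), than with PBS, and its difference with WT IL-2 was -0.45 (adjusted p = 0.162). Tnf was like it, at -0.74 with 3x (adjusted p = 0.000258) and 0.02 with WT IL-2 (adjusted p = 0.953). For Car1 the difference was called with H16R alone (-1.96, adjusted p = 0.0444).

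By list, genes of other cell types differed in large part, and their part in the other differences was not tested. Over all genes, an upward difference was called for 11.7%, 10.6% and 20.3% for WT IL-2, H16R and 3x, and without isotype replicate 1 for 11.8%, 7.87% and 17.6%. Of 17 B cell markers 17, 14 and 16 had a higher blockade effect with WT IL-2, H16R and 3x than with PBS, and without isotype replicate 1 these were 16, 7 and 12. Of 11 MHC II genes 10, 9 and 9 did, and 9, 7 and 8 without that library. The MHC II gene H2-Aa differed by 2.57, 2.19 and 2.51 (adjusted p = 0.00114, 0.00828 and 0.000834), and by 1.96, 1.58 and 1.91 without isotype replicate 1, with all 3 still called. Its isotype and block libraries averaged 80.1 ± 16.7 and 179 ± 143 CPM with WT IL-2 (SD, n = 4), so those block libraries were very uneven. The averages were 40.2 ± 7.84 and 68.6 ± 13.8 CPM with H16R and 29.4 ± 4.05 and 62.9 ± 6.52 CPM with 3x (SD, n = 4). Upward differences were also called for 17, 12 and 17 of 18 monocyte and macrophage, 10, 7 and 9 of 10 dendritic cell, 8, 7 and 7 of 9 neutrophil, 9, 10 and 9 of 11 NK and CD8 T cell and 5, 5 and 5 of 5 plasma cell markers. The numbers were lower or equal without isotype replicate 1, at 13, 6 and 9 monocyte and macrophage, 9, 5 and 6 dendritic cell, 6, 2 and 1 neutrophil, 9, 9 and 9 NK and CD8 T cell and 5, 5 and 5 plasma cell markers. In Treg genes, chemokine receptors differed upward for 6, 9 and 11 of 16, and for 6, 6 and 10 without isotype replicate 1. Of 30 effector Treg markers, 15 were lower and 4 higher than with PBS for WT IL-2 (median -0.36), against 7.98% of all genes lower (9.38% without isotype replicate 1). In the same test 6 of 6 T cell markers (median -0.48) and 6 of 10 Treg markers (median -0.42) were lower and none higher, and their part in the effector count was not tested. For H16R 8 effector markers were higher and 1 lower, and for 3x 15 and 1. Of the 10 Treg markers 0 were higher and 5 lower for H16R, and 1 and 7 for 3x. These were 0 and 2 for H16R and 2 and 7 for 3x without isotype replicate 1. Of the 6 T cell markers 0 were higher and 1 lower for H16R, and 0 and 2 for 3x. Over all 12392 genes, 1050 were lower for H16R and 2319 for 3x. Without isotype replicate 1 the effector counts were 5 higher and 15 lower for WT IL-2, 7 and 1 for H16R and 15 and 1 for 3x, and the same 6 T cell markers and a count of 6 Treg markers were lower for WT IL-2. Replication genes differed upward for 0, 20 and 26 of 30, and for 0, 13 and 22 without isotype replicate 1.

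**Figure D5:**
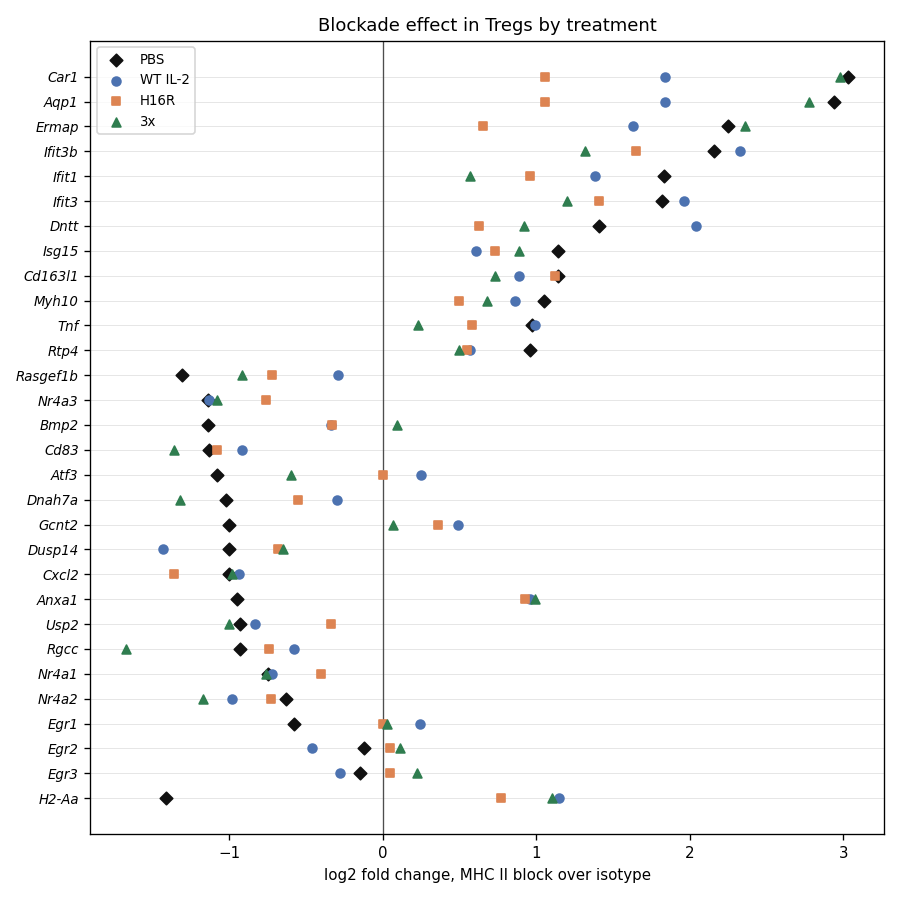
Log2 fold change of MHC II block over isotype in Tregs with PBS, WT IL-2, H16R and 3x (symbols) for the 30 genes, the 24 largest rises and falls with PBS followed by the NR4A and EGR factors and H2-Aa. Anxa1 and H2-Aa lie left of 0 with PBS and right of 0 with all 3 IL-2 molecules, while Nr4a3 and Cd83 lie left of 0 in all 4.

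The PBS Tcon libraries carry the mouse labels of Treg replicates 1 and 2 of each treatment group, isotype replicate 1 among them. Treg and Tcon values are therefore not from independent mice. In the Tcons, with 2 libraries against 2, the block changed 1276 of 12526 genes (10.2%), 248 higher (1.98%) and 1028 lower (8.21%). The count was 807 without Tcon isotype replicate 1, 744 and 743 without Tcon block replicates 1 and 2, and 2464 with the 4 PBS Tcon libraries alone. The B cell markers without immunoglobulin genes summed to 1832 and 1600 CPM in the isotype and to 356 and 345 CPM in the block libraries, and 18 of 18 B cell, 11 of 11 MHC II and 11 of 11 dendritic cell genes fell. The part of these cells in the other lower calls was not tested. Interferon-stimulated genes that led in Tregs also rose here. Ifit1 was at 18.7 and 16.7 CPM and then at 139 and 129 CPM (2.92 ± 0.21, adjusted p = 1.5e-05), and Isg15 changed by 1.39 ± 0.17 (adjusted p = 0.000245). In all 7 of 67 rose, against 1.98% of all genes, and 4 fell (Pml, Bst2, Tor3a and Trim25), against 8.21%. The share of all genes rising depended on the fit, as 936 of 11792 rose and 1528 fell with the 4 PBS Tcon libraries alone. Tnf (1.47 ± 0.19, adjusted p = 0.000383), Dntt (1.95 ± 0.18, adjusted p = 4.15e-05) and Lag3 (1.79 ± 0.50, adjusted p = 0.047) rose as well.

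Of the NR4A and EGR factors in Tcons, Egr1, Nr4a1, Egr2 and Egr3 fell. Nr4a1 was at 642 and 648 CPM and then at 406 and 445 CPM (-0.60 ± 0.10, adjusted p = 0.00187), whereas Nr4a3, the leading fall in Tregs, was at 58.2 and 54.5 CPM and then at 36.7 and 36.4 CPM without passing the threshold (-0.62 ± 0.22, adjusted p = 0.124). Egr3 was at 44.6 and 37.1 CPM and then at 24.6 and 24.4 CPM (-0.74 ± 0.20, adjusted p = 0.0476). Of the 29 TCR complex genes 11 rose, among them Lck, Zap70 and Cd3e, against 1.98% of all genes, a share that depended on the fit as given above. In this list 1 gene fell (Ptpn6). T cell markers moved with them, as 4 of 6 rose (median 0.40), while the B cell sums were lower as given above, and the part of this in the TCR complex count was not tested. Car1 was at 93.8 and 124 CPM and then at 125 and 149 CPM (0.33 ± 0.35, adjusted p = 0.712), well above its level in any PBS Treg library. Whether an effect differed between Tregs and Tcons was not tested.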

How the data were processed

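Spleen Treg and Tcon RNA was sequenced from a stranded mRNA library kit. Per the methods of the study, the authors used the OSA aligner of Omicsoft Array Suite on the mouse B38 build (GRCm38) and the RSEM quantification of that software, and deposited 1 matrix of expected counts and 1 of FPKM for 53345 genes in 48 libraries. The further tables that the authors deposited hold their own DESeq2 (1.30.1) comparisons, with log2 fold changes, p-values and test scores, and were not used. In the expected count matrix 72.6% of nonzero values were whole, with a tolerance of 0.

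Expected counts were rounded and fitted with edgeR 4.0.16 (R 4.3.3) by the quasi-likelihood test, with TMM scaling, in 1 model of 8 groups and 32 Treg libraries, which share 1 estimate of the spread; the 16 Tcon libraries were fitted separately. Genes were protein coding, had no empty cell and were above 0.5 CPM in at least 4 libraries. Of all genes, 51519 (96.6%) matched the annotation. Calls were made at a Benjamini-Hochberg adjusted p under 0.1, the threshold the study used. The effect of IL-2 on the blockade effect was an interaction contrast. At the lowest depth of 18.28 M, a level of 1 CPM stands for 18.28 counts. Alternatives were DESeq2 1.42.0, other scalings and filters, limma 3.58.1 on log2(FPKM + 1), a fit of the PBS libraries alone, a replicate block and leaving out each PBS library in turn. No library of an IL-2 group was left out. The code was checked on simulated data.

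The members, 30 pathway lists, 10 marker lists and the naming rule were chosen with earlier results of these data known. The rule took the 12 largest rises and 12 largest falls above a mean of 5 CPM called with and without isotype replicate 1, 5 rises and 5 falls lost without that library, up to 4 called genes per list, and a fixed set of lineage and TCR response genes. Levels of the other genes in the text were added after their values were seen. Batches were not given in the sources used here, and no replicate pair of the 8 libraries agreed within sampling noise. Replicates were libraries of individual mice, except that 2 of the 4 isotype WT IL-2 libraries carry 1 mouse label (A2-3). Their counts differed by more than sampling noise (chi-square over degrees of freedom of 29.8, against 6.34 to 29.1 for the other pairs of that group), so both were kept, and a fit with their sum as 1 library was added after the data were seen. Results of some genes are not reported here.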

Additional observations from a re-analysis of the deposited data

Results flagged for a closer look

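Of 158 sets of 4 libraries examined, 19 had 1 library whose gap to its nearest neighbour divided by the range of the set exceeded Dixon's 95% limit, where chance gives about 1 in 20. Isotype replicate 1 accounted for 10 of them. The sets are not independent, since the marker sums and single genes share members and several genes were taken up because their calls were lost without that library, so the tally is a description and not a test against chance. It was highest for the summed B cell markers (0.929 of the range), monocyte and macrophage markers (0.833) and MHC II genes (0.889), and for Scd1 (0.937), Fcer2a (0.911), Cd74 (0.907), Hk2 (0.902), Pax5 (0.888) and H2-Aa (0.861), and it was lowest for Ncr1 (0.865). Isotype replicate 4 was highest for Rel (0.876) and Car1 (0.856) and lowest for Cd27 (0.833), and isotype replicate 2 was lowest for Ccr7 (0.963). Block replicate 3 was highest for Atf3 (0.915), Scd1 (0.863), Fcer2a (0.859) and Hsp90aa1 (0.852), and block replicate 2 was lowest for Klrd1 (0.870).

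The blockade effect differed from that with PBS, by the interaction test, for 2437, 2363 and 4835 genes with WT IL-2, H16R and 3x. These were 2616, 1740 and 4261 without isotype replicate 1. Among the 30 genes followed, 10 had no called difference and 5 had all 3 (H2-Aa, Anxa1, Gcnt2, Egr1 and Rtp4). With WT IL-2 the log2 differences were 2.57 for H2-Aa, 1.91 for Anxa1, 1.49 for Gcnt2, 1.33 for Atf3, 1.01 for Rasgef1b, 0.81 for Egr1, 0.73 for Dnah7a, -0.34 for Egr2, -0.39 for Rtp4 and -0.53 for Isg15. With H16R they were 2.19 for H2-Aa, 1.88 for Anxa1, 1.36 for Gcnt2, 1.07 for Atf3, 0.58 for Egr1, -0.39 for Tnf, -0.41 for both Rtp4 and Isg15, -0.87 for Ifit1, -1.61 for Ermap and -1.96 for Car1. With 3x they were 2.51 for H2-Aa, 1.94 for Anxa1, 1.23 for Bmp2, 1.07 for Gcnt2, 0.61 for Egr1, 0.37 for Egr3, -0.46 for Rtp4, -0.53 for Nr4a2, -0.62 for Ifit3, -0.74 for both Tnf and Rgcc, -0.84 for Ifit3b and -1.26 for Ifit1. When isotype replicate 1 was left out, called differences were lost for Rtp4 (WT IL-2 and H16R, adjusted p = 0.117 and 0.123), for Ermap and Tnf with H16R (0.159 and 0.139) and for Nr4a2 and Egr3 with 3x (0.181 and 0.12), and were gained for Rgcc with WT IL-2 (0.42, adjusted p = 0.0755) and Usp2 with H16R (0.76, adjusted p = 0.0745). The difference of Rtp4 with WT IL-2 had an adjusted p of 0.103 with the A2-3 libraries summed. The 3 sets of differences share the PBS libraries and are not independent of each other.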

How the results depend on the processing

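The count of genes changed by the block in PBS Tregs (1751) was 1732 with DESeq2's size factors, 1780 with total counts, 1839 with DESeq2, 1707 with CPM above 1, 1398 without the CPM filter, 1863 with all biotypes, 1748 with empty cells as 0 and 1941 on log2(FPKM + 1). It was 780 with the 8 PBS libraries alone, 1089 at an adjusted p under 0.05 and 199 when a log2 change of 1 or more in either direction was also asked. Leaving out 1 of the 8 PBS libraries gave 1106 to 1987, with 1165 without block replicate 1 and 1106 without block replicate 2. Alternatives chosen after seeing the data gave 1348 with every Treg library thinned to the smallest, 1612 without isotype replicate 1 and block replicate 3, and 1776 with the 2 isotype WT IL-2 libraries of label A2-3 summed. Of the 144 genes named by rule, 121 kept their side of the threshold without isotype replicate 1, 114 with the PBS libraries alone, 143 with DESeq2, 139 with total counts and 88 with the replicate block, and none of the 144 that was called with all libraries or in the alternative changed direction between them.

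With the replicate number as a block in the 8 PBS libraries, 274 genes were called. Same-numbered libraries had correlations of deviations of -0.28, 0.07, -0.26 and -0.19, so the numbers were not taken to pair the samples, and the cause of the lower count was not tested.

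Without isotype replicate 1 the count (1987) was 1136 with the 7 PBS libraries alone and 1289 at an adjusted p under 0.05. It was 888 to 2339 on leaving out a further PBS library, the lowest being without isotype replicate 4. On leaving out 1 PBS Treg library, the interaction counts ranged from 1988 to 2616 with WT IL-2. They ranged from 1680 to 3593 with H16R (highest without isotype replicate 4) and from 4261 to 5666 with 3x. Libraries with IL-2 were not left out, so these ranges do not vary that side of the contrast. The H16R count was 1378 at an adjusted p under 0.05. The Tcon count (1276) was 2464 with the 4 PBS libraries alone and 743 to 890 on leaving out 1 library, where the lone library left in a group is assumed to vary like the others. The difference in mean library size (7.56 M) ranged from 5.41 to 10.95 M, and was 10.95 M without isotype replicate 1 (two-sided exact permutation p = 0.0286). With the A2-3 libraries summed, the interaction counts were 2247, 2423 and 4879. Depth limits what can be said of genes near 1 CPM, such as Klf1 and Nos1.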

Other observations

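Immunoglobulin transcripts, which were left out of the B cell sums, set apart another library than isotype replicate 1. Ighm was at 10463, 9258, 10191 and 7130 CPM in isotype replicates 1 to 4 and at 3586, 9515, 11838 and 9150 CPM in block replicates 1 to 4, so that block replicate 1 was the lowest of all 8. Igkc followed the same order at its low end, with 1313 CPM in block replicate 1 and 1863 CPM in isotype replicate 4 against 3825 to 5594 CPM in the other libraries. Jchain, which encodes the joining chain of secreted IgM and IgA, was at 545 CPM in block replicate 1 and at 1414 to 1799 CPM elsewhere (block over isotype -0.31 ± 0.31 on the log2 scale, edgeR adjusted p = 0.585).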
